A study of Mus musculus with 6 samples.

Results

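Markers of macrophages and neutrophils were followed in RNA sequencing of the mesonephros, tubule region included, of male mouse embryos at E16.5: C1qa, C1qb, C1qc, Csf1r, Mrc1, Lyz2, Cd68, Tyrobp, S100a8 and S100a9. They were taken by symbol from a table of 14366 genes, all 10 were present, and all 10 were among the 12300 genes kept by a filter on low values, which asked for 1 TPM in 3 or more of the 6 libraries. TPM is transcript abundance scaled for gene length and for the library total, so levels can be compared between genes. The control group (n = 3) carried Osr2Cre and 1 floxed Gata2 allele beside an unfloxed one (Osr2Cre+;Gata2-flox/+). The Gata2cKO group (n = 3) carried Osr2Cre and 2 floxed alleles (Osr2Cre+;Gata2-flox/flox), so both groups carried the recombinase. Osr2 is active in mesenchyme, and cells that never express Osr2-Cre keep Gata2 in both groups. The study asks what mesenchymal Gata2 does in the Wolffian duct, the precursor of the epididymis. The comparison here is of the immune cell transcripts that came with that tissue. Strain background is not given in the labels, nor whether a sample is 1 embryo or a pool, so a p-value here measures spread between samples that may be technical.

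Macrophages of embryonic tissue take up dying cells and debris, and depend on the receptor encoded by Csf1r for survival. C1qa, C1qb and C1qc encode the chains of C1q, the recognition protein of the classical complement pathway, and tissue macrophages are a main source of it. Neutrophils are short-lived phagocytes that carry calprotectin, the dimer of S100a8 and S100a9, as an abundant cytosolic protein, and monocytes carry it too. Lyz2 encodes the lysozyme shared by macrophages, monocytes and neutrophils. In bulk tissue, fewer cells of a type and less RNA per cell cannot be told apart, and the same holds for more.

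The labelled tissue showed its own markers in every library. The mesenchymal factor Tcf21 lay between 432 and 838 TPM over the 6 libraries, and the duct and tubule factors Lhx1 and Pax8 between 12.8 and 23.4 TPM and between 3.43 and 4.41 TPM. Ptprc, which encodes the pan-leukocyte antigen CD45, lay between 0.509 and 0.720 TPM. Gata2 was listed at 384, 464 and 546 TPM in control replicates 1, 2 and 3 and at 431, 530 and 416 TPM in Gata2cKO replicates 1, 2 and 3 (log2 fold change -0.01, limma adjusted p = 0.968). This gene-level value cannot check for loss of a floxed exon, so every direction below rests on the labels. The mitochondrial share of the TPM was 21.9% in control replicate 1 and between 13.2% and 16.3% in the other 5 libraries. The values were taken as TPM from their library sums, and depth is unknown.

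S100a8, S100a9, Lyz2 and Mrc1, 4 of the 10 genes, rose in libraries labelled Gata2cKO and none fell, by limma with p-values adjusted over all 12300 tested genes at a threshold of 0.05. The background was 7.47% of tested genes called, 5.73% higher and 1.74% lower. Of the called genes 76.7% were higher, and this share was 54.9% with median-of-ratios scaling, 64.5% with upper-quartile scaling and 60.5% without mitochondrial genes in the total. The other 6 genes, the 3 C1q genes, Csf1r, Tyrobp and Cd68, did not pass. In 6 of the 10, all 3 Gata2cKO values lay above all 3 control values, an arrangement found in 23.4% of tested genes. The fold change was positive for 9 of the 10, as it was for 59.5% of tested genes. The median log2 fold change of the 10 genes was 0.36, against 0.05 over all tested genes. The 10 genes were chosen with earlier results of these data known, so these comparisons with the background are descriptions. Some of the 10 also ran together over the 6 libraries. The Pearson correlation was 0.965 for S100a8 and S100a9 and between 0.824 and 0.910 among the 3 C1q genes.

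**Figure D1:**
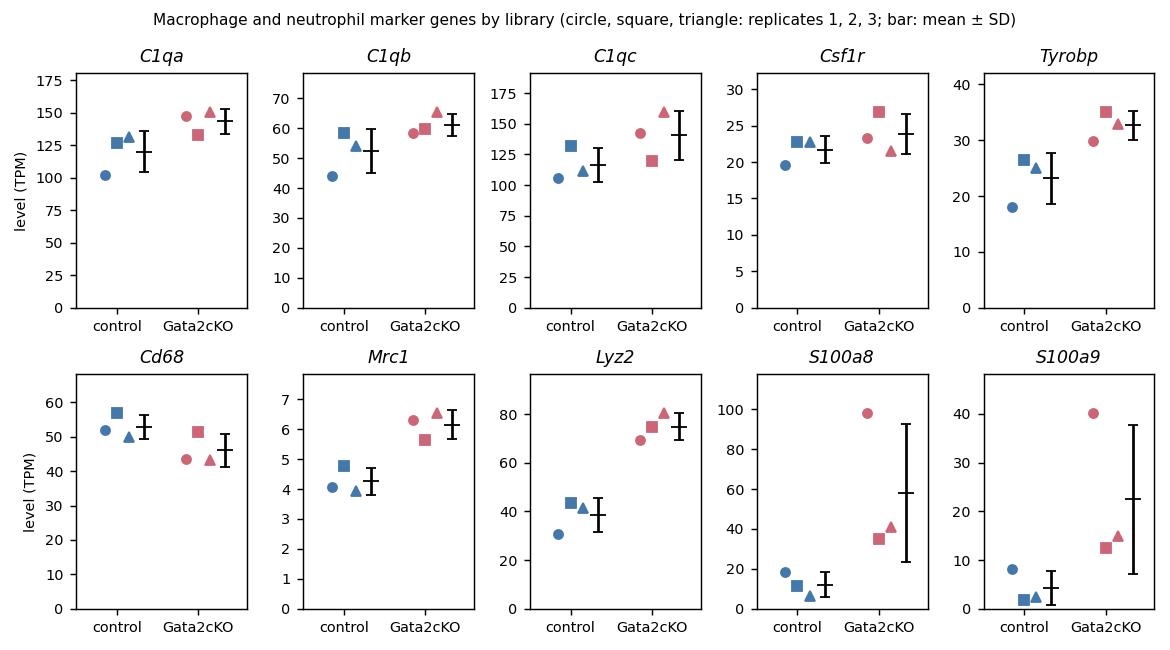
Level in TPM of the 10 marker genes in each library, with a vertical axis from 0 for each gene; circles, squares and triangles are replicates 1, 2 and 3, and the bar is the mean ± SD (n = 3). S100a8, S100a9, Lyz2, Mrc1, Tyrobp and C1qa show no overlap between the groups, and the S100a8 value of 98.0 TPM in Gata2cKO replicate 1 stands far above the other libraries.

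The start regions of the 4 genes that rose are shown because their values moved the same way. Each window runs from 250 bases before the RefSeq start to 50 bases after it and is read on the strand of the gene (sequence from RefSeq, GRCm38.p6). Windows were found for 7 of the 10 genes (not for C1qa, Csf1r and Tyrobp). Capitals mark matches on either strand to AGATAA and its variant TGATAA for factors of the GATA family, to GAGGAA for PU.1, a factor of myeloid cells, to TTGCNNAA for factors of the C/EBP family, to TGANTCA for AP-1 and to TATAAA for the TATA box. No 2 matches overlap, and in S100a8 a PU.1 match and a TATA match adjoin.
S100a8, chr3:90668821-90669120, plus strand: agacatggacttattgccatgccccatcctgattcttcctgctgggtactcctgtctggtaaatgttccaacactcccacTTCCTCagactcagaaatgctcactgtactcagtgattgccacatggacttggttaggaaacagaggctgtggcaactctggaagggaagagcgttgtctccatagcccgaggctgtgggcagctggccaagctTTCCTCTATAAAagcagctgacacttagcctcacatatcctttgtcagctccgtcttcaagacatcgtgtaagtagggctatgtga
S100a9, chr3:90695672-90695971, minus strand: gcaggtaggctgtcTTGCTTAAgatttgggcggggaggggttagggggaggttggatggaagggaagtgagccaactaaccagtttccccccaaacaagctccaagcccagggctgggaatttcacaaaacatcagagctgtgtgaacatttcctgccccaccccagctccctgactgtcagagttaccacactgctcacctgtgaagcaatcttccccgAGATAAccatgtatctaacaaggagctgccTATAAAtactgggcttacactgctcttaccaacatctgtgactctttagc
Lyz2, chr10:117282223-117282522, minus strand: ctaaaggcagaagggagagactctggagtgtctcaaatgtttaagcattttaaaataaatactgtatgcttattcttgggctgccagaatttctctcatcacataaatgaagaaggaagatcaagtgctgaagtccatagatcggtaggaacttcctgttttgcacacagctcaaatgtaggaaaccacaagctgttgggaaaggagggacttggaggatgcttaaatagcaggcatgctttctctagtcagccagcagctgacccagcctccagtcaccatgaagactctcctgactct
Mrc1, chr2:14229164-14229463, plus strand: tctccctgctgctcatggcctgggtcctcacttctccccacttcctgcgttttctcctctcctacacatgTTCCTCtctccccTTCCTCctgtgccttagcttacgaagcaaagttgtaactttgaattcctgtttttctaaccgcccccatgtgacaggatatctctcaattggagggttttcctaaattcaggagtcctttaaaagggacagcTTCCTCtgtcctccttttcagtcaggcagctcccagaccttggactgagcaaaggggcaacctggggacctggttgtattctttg

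The S100a8 window held 2 PU.1 matches and, at position -30 (the start is 1), a TATA match. In the S100a9 window a TATA match lies at the annotated start itself, a GATA match (AGATAA) begins at position -30 and a C/EBP match at position -236. The Mrc1 window held 3 PU.1 matches, and the Lyz2 window held none of the 5 motifs. Among all 7 windows PU.1 letters were found in 5, against 28.3% of 32851 windows of the same length, and GATA letters in 1, against 18.6%. C/EBP letters were found in 2 of the 7 (10.8% of all windows), TATA letters in 2 (13.6%) and AP-1 letters in 1, that of Cd68 (7.81%). These matches describe letters and do not show that a factor binds there.

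S100a8 and S100a9, the genes of the calprotectin subunits, had the highest log2 fold changes of the 10. Both are protein-coding genes on chromosome 3, S100a8 from 90668978 to 90670035 and S100a9 from 90692632 to 90695721 (GRCm38, GENCODE M21), with 22596 bases between them. S100a8 stood at 18.5, 11.3 and 6.37 TPM in control replicates 1, 2 and 3 and at 98.0, 35.1 and 41.1 TPM in Gata2cKO replicates 1, 2 and 3. The lowest Gata2cKO library was thus above the highest control, and Gata2cKO replicate 1 was by far the highest of the 6. The means were 12.1 ± 6.12 and 58.0 ± 34.7 TPM (SD, n = 3 each), a ratio of 4.81. The log2 fold change was 2.14 with an SE of 0.44, and limma gave an adjusted p of 0.0330.

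S100a9 stood at lower levels. It stood at 8.23, 1.84 and 2.49 TPM in control replicates 1 to 3 and at 40.1, 12.5 and 14.9 TPM in Gata2cKO replicates 1 to 3. The groups did not overlap, and replicate 1 was the highest library within each group. The means were 4.19 ± 3.52 and 22.5 ± 15.3 TPM (SD, n = 3 each), a ratio of 5.38. The log2 fold change was 2.20 with an SE of 0.53, and limma gave an adjusted p of 0.0481. The level of S100a8 was between 2.25 and 2.81 times that of S100a9 in 5 libraries and 6.13 times in control replicate 2, where S100a9 was lowest. Without Gata2cKO replicate 1 the log2 fold changes were 1.69 for S100a8 and 1.70 for S100a9, and neither passed (limma adjusted p = 0.0846 and 0.130). The mean of Gata2cKO replicates 2 and 3 alone was 3.16 times the control mean for S100a8 and 3.27 times for S100a9. S100a8 kept its call in 1 of the 6 removals of a library, that of control replicate 1 (adjusted p = 0.0139), and so did S100a9 (adjusted p = 0.0110). The highest adjusted p over the removals was 0.0907 for S100a8 and 0.130 for S100a9. S100a9 also lost its call with each of the 3 other scalings and with no filter (adjusted p between 0.0523 and 0.0674).

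The spread of these genes within a group was wide. The coefficient of variation of S100a8 was 50.7% in controls and 59.8% in Gata2cKO libraries, and that of S100a9 was 84.0% and 67.9%. The median over all tested genes was 10.2% in controls and 8.28% in Gata2cKO libraries. None of the other 8 genes exceeded 19.4% in either group.

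Other neutrophil genes gave a mixed picture. Of 26 written down as neutrophil markers, 15 were in the table and 9 were tested, and 11, among them Ly6g, Elane, Mpo and Cxcr2, were not analysed here. No gene of the 15 was listed at 0 in any library, and 3 stayed below 1 TPM in every library. Anxa1, an annexin gene abundant in neutrophils and also made by epithelia, was the 1 tested gene that rose, and none fell. It went from 16.8, 13.5 and 12.2 TPM in the controls to 27.0, 19.3 and 21.6 TPM (log2 fold change 0.64, limma adjusted p = 0.0464; 0.144 at most over the removals). The median log2 fold change of the 9 tested genes was 0.64. The filter on low values shaped this median: Mmp9 met it only through the Gata2cKO libraries, and 6 listed genes were left out. The 15 listed genes summed to between 268 and 278 TPM in controls and between 259 and 330 TPM in Gata2cKO libraries, ranges that overlap. The main part of that sum was G0s2 (173 to 209 TPM over the libraries) and Lcn2 (42.3 to 64.8 TPM), so it says little about the other listed genes.

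Ngp and Camp, like the other single genes in this paragraph named after their values were seen, had their highest value in Gata2cKO replicate 1. Ngp, the neutrophilic granule protein gene, stood at 3.34, 1.74 and 0.590 TPM in controls and at 15.8, 2.76 and 1.60 TPM in Gata2cKO replicates 1 to 3 (limma adjusted p = 0.357). Camp, the cathelicidin gene, stood at 3.57, 0.762 and 0.430 TPM and at 10.5, 1.12 and 0.936 TPM (adjusted p = 0.580). Control and Gata2cKO values overlapped for both, since replicates 2 and 3 of Gata2cKO lay within the control range. Ltf, the lactoferrin gene, and Mmp8, neutrophil collagenase, did not overlap between groups but stayed below 2 TPM and were not tested. Retnlg, a resistin-like gene of neutrophils, was highest in Gata2cKO replicate 2 instead (7.16 TPM, with 3.58 and 2.49 TPM in replicates 1 and 3 and 0.764 to 2.69 TPM in controls; adjusted p = 0.107). These other granule genes did not peak in Gata2cKO replicate 1: Lcn2, the lipocalin gene, was highest in control replicate 1 (64.8 TPM, against 60.4 TPM in Gata2cKO replicate 1) and Prtn3, the proteinase gene, in control replicate 3 (3.27 against 2.93 TPM). Mmp9, the gelatinase gene, was level over the Gata2cKO libraries (1.62, 1.60 and 1.60 TPM). Each of these lay above its controls (0.241, 0.792 and 0.990 TPM), an arrangement found in 23.4% of tested genes. It did not pass (limma adjusted p = 0.0561), and it met the filter on low values only through the Gata2cKO libraries. Of the 15 genes, 7 had their highest value in Gata2cKO replicate 1 and 4 in control replicate 1. The same share over all tested genes was not counted, and 3 of the 15 stayed below 1 TPM in every library, so no result is read from this count. Csf3r, a listed receptor gene that was not tested, was lowest in Gata2cKO replicate 1 (0.471 TPM, with 0.743 to 1.32 TPM in controls). The part of neutrophil number in the S100a8 and S100a9 result was not tested.

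**Figure D2:**
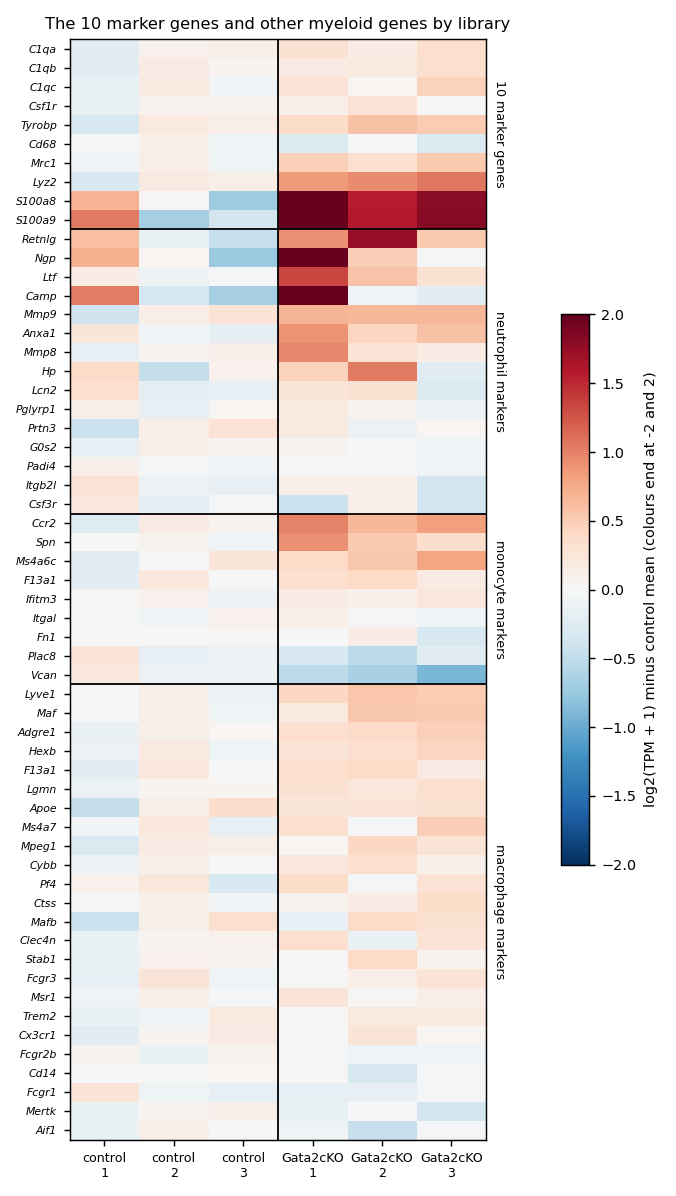
Difference of log2(TPM + 1) from the control mean for the 10 marker genes and for the neutrophil, monocyte and macrophage marker lists in the 6 libraries, where red is higher and blue lower. S100a8 and S100a9 are dark red in all 3 Gata2cKO libraries, while Ngp and Camp are darkest in Gata2cKO replicate 1.

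Lyz2 had the smallest adjusted p of the 10 genes. It encodes lysozyme, which cuts bacterial cell walls, and lies on chromosome 10 from 117277331 to 117282321. It stood at 30.7, 43.6 and 41.5 TPM in control replicates 1 to 3 and at 69.6, 74.7 and 80.4 TPM in Gata2cKO replicates 1 to 3. The groups were well apart, with every Gata2cKO library above 69 TPM and every control below 44 TPM. The means were 38.6 ± 6.91 and 74.9 ± 5.40 TPM (SD, n = 3 each), a ratio of 1.94. The log2 fold change was 0.95 with an SE of 0.14, and limma gave an adjusted p of 0.0127. Unlike S100a8, it was not highest in Gata2cKO replicate 1. It passed under every planned scaling, pseudocount and filter, and did not pass when Gata2cKO replicate 2 (adjusted p = 0.0509) or replicate 3 (adjusted p = 0.0549) was left out. Lyz1, a near-identical copy, was not analysed here, and no source used here says how reads of the pair were divided, so the level of Lyz2 is uncertain to that extent.

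Mrc1 rose by less. It encodes the mannose receptor CD206, an endocytic receptor of tissue macrophages that sinusoidal and lymphatic endothelium also carries, and lies on chromosome 2 from 14229392 to 14332057. It stood at 4.06, 4.77 and 3.94 TPM in control replicates 1 to 3 and at 6.31, 5.63 and 6.53 TPM in Gata2cKO replicates 1 to 3. The highest control lay below the lowest Gata2cKO library. The means were 4.25 ± 0.449 and 6.15 ± 0.470 TPM (SD). On the log2 scale the difference was 0.45 with an SE of 0.10, and limma gave an adjusted p of 0.0393. The call was kept in 1 of the 6 removals of a library, that of control replicate 1 (adjusted p = 0.0451), with an adjusted p of at most 0.144, and was lost with each of the 3 other scalings and with no filter (0.0518 to 0.0720).

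Lyve1, which marks the same endothelia and a subset of tissue macrophages, rose as well, at 6.75 ± 0.602 TPM in controls and 9.88 ± 0.486 TPM in Gata2cKO libraries (SD; log2 fold change 0.49, limma adjusted p = 0.0253; 0.0934 at most over the removals). It was the 1 of 4 tested lymphatic and sinusoidal markers that rose, and the 7 listed genes of that kind summed to between 49.4 and 53.8 TPM in controls and between 54.1 and 66.7 TPM in Gata2cKO libraries. Of 15 tested general endothelial markers, 3 rose and none fell, led by Esam, an endothelial adhesion gene (30.3 ± 0.973 and 44.3 ± 0.478 TPM, limma adjusted p = 0.0112). That list summed to between 462 and 605 TPM in controls and between 625 and 746 TPM in Gata2cKO libraries. The sum of either list was lowest in control replicate 1 (49.4 and 462 TPM), the library with the highest mitochondrial share. How often such sums lie apart between the groups was not counted. The part of endothelial cells in the Mrc1 result was not tested.

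Tyrobp, Csf1r and Cd68 did not pass. Tyrobp encodes DAP12, an adaptor that passes signals from TREM and related receptors of myeloid cells. It stood at 18.0, 26.5 and 25.0 TPM in control replicates 1 to 3 and at 29.9, 35.0 and 33.0 TPM in Gata2cKO replicates 1 to 3. The groups did not overlap, but control replicate 1 lay apart from the other controls (log2 fold change 0.49, 95% interval 0.16 to 0.83, limma adjusted p = 0.0802). Csf1r, the receptor for the macrophage growth factors Csf1 and Il34, overlaps Hmgxb3 on the opposite strand. Within the stretch that the 2 genes share, reads cannot be told apart without strand, and the share of Csf1r reads from there is not known. It stood at 19.5, 22.7 and 22.8 TPM in controls and at 23.3, 26.8 and 21.4 TPM in Gata2cKO libraries, and the groups overlapped. Its log2 fold change was 0.13 (95% interval -0.12 to 0.38, limma adjusted p = 0.483).

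Cd68, a lysosomal membrane glycoprotein gene of macrophages, was the 1 gene of the 10 with a negative fold change. It stood at 52.0, 56.8 and 49.9 TPM in controls and at 43.5, 51.4 and 43.2 TPM in Gata2cKO libraries, with Gata2cKO replicate 2 inside the control range. Its log2 fold change was -0.20 (95% interval -0.43 to 0.03, limma adjusted p = 0.232).

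The 3 C1q genes lie side by side on chromosome 4, with C1qb from 136880129 to 136886187, C1qc from 136889804 to 136893065 and C1qa from 136895917 to 136898803. C1qa stood at 102, 127 and 132 TPM in control replicates 1 to 3 and at 148, 133 and 150 TPM in Gata2cKO replicates 1 to 3. C1qc stood at 106, 132 and 112 TPM and at 143, 120 and 159 TPM in the same order. C1qb stood at 44.1, 58.5 and 54.1 TPM and at 58.3, 59.8 and 65.3 TPM. Control replicate 1 was the lowest library for all 3 genes, and the groups overlapped for C1qb and C1qc, while for C1qa they came close to touching. The log2 fold changes were 0.26 for C1qa (95% interval -0.00020 to 0.52), 0.27 for C1qc (-0.03 to 0.57) and 0.23 for C1qb (-0.04 to 0.50), and none passed (limma adjusted p = 0.183, 0.230 and 0.242). Without control replicate 1 they were 0.15, 0.20 and 0.12.

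The ratios between the 3 genes were alike in the 2 groups. C1qa stood between 2.17 and 2.54 times C1qb in each of the 6 libraries, and C1qc between 2.002 and 2.45 times. Summed over the 3 genes the level was 289 ± 33.2 TPM in controls and 345 ± 31.6 TPM in Gata2cKO libraries (SD, n = 3 each), and the lowest Gata2cKO library (312 TPM) lay within the control range (252 to 317 TPM).

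**Figure D3:**
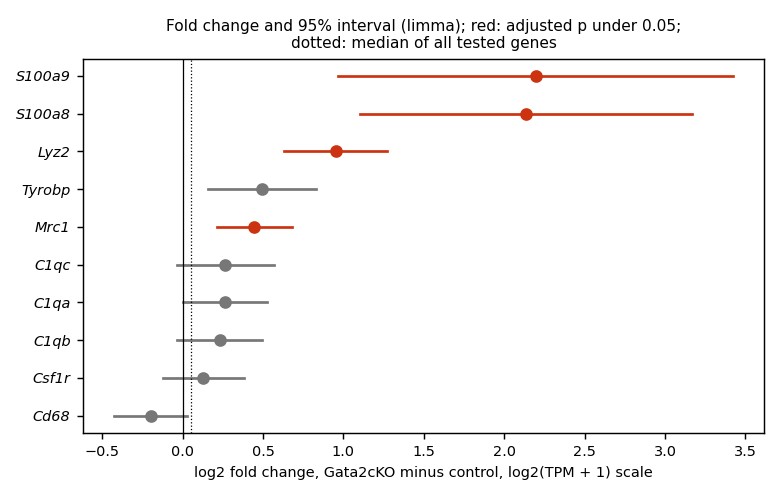
Difference in mean log2(TPM + 1), Gata2cKO minus control, of the 10 marker genes, with 95% intervals from limma; red genes passed at an adjusted p under 0.05 and the dotted line is the median of all tested genes. S100a9 and S100a8 lie near 2.20 and 2.14 with wide intervals, Lyz2 at 0.95, and Cd68 is the 1 gene below 0.

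The 10 genes could also be put in order of level. In controls the order from high to low was C1qa (120 TPM), C1qc (116 TPM), Cd68 (52.9 TPM), C1qb (52.2 TPM), Lyz2 (38.6 TPM), Tyrobp (23.2 TPM), Csf1r (21.7 TPM), S100a8 (12.1 TPM), Mrc1 (4.25 TPM) and S100a9 (4.19 TPM). The neighbours C1qa and C1qc, Cd68 and C1qb, Tyrobp and Csf1r, and Mrc1 and S100a9 overlapped in their libraries and have no order beyond their spread. By the Gata2cKO means Lyz2 had rank 3 (rank 5 in controls), S100a8 rank 5 (rank 8 in controls) and Mrc1 was last. Library by library, S100a8 had rank 3 in Gata2cKO replicate 1 and rank 6 in replicates 2 and 3, and Lyz2 had ranks 4, 3 and 3. The Gata2cKO libraries of S100a8 overlapped with those of both C1qb and Cd68. Lyz2 stood at 1.57, 1.92 and 1.82 times the level of Csf1r in control replicates 1 to 3 and at 2.99, 2.79 and 3.75 times in Gata2cKO replicates 1 to 3, so that ratio did not overlap between groups. The ratio of Mrc1 to Csf1r was between 0.173 and 0.210 in controls and between 0.210 and 0.305 in Gata2cKO libraries. That of Tyrobp to Csf1r was between 0.923 and 1.16 in controls and between 1.29 and 1.54 in Gata2cKO libraries. The ratio of Cd68 to Csf1r went the other way, between 2.19 and 2.66 in controls and between 1.87 and 2.01 in Gata2cKO libraries. These ratios were not tested, and how often such ratios lie apart over all genes was not counted.

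Among other macrophage markers 1 gene rose. Of 30 written down, 24 were in the table, 20 were tested, 1 (Lyve1) rose and none fell, with a median log2 fold change of 0.18. None of the 24 was listed at 0 in any library, and their summed level was 1042, 1467 and 1627 TPM in control replicates 1 to 3 and 1578, 1592 and 1652 TPM in Gata2cKO replicates 1 to 3, with Apoe, which many cell types make, as the main part. Adgre1, the gene of the macrophage antigen F4/80, and Maf, a macrophage transcription factor also found elsewhere, came nearest after Lyve1 (named after their values were seen). Adgre1 was at 0.673 ± 0.151 and 1.20 ± 0.118 TPM and Maf at 32.2 ± 2.67 and 43.6 ± 5.74 TPM (SD), and limma gave adjusted p-values of 0.0581 and 0.0685. The controls of Adgre1 all lay below 1 TPM, so it met the filter on low values only through the Gata2cKO libraries, and its values were near that floor. Trem2, a receptor that signals through the product of Tyrobp, was at 9.14 ± 1.20 and 10.1 ± 0.762 TPM (adjusted p = 0.475).

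Among monocyte markers 1 of 7 tested genes rose and 1 fell. Ccr2, the chemokine receptor that brings monocytes into tissue, rose from 0.876, 1.47 and 1.33 TPM in controls to 3.41, 2.51 and 2.89 TPM in Gata2cKO libraries (limma adjusted p = 0.0178, log2 fold change 0.83), and kept its call in 4 of the 6 removals (0.0755 at most). Its level was low but every Gata2cKO library lay above every control. Vcan, the gene that fell (86.2 ± 11.6 and 52.9 ± 7.11 TPM), encodes a matrix proteoglycan that mesenchyme also makes. Spn and Ms4a6c, named after their values were seen, showed no overlap between the groups but did not pass (limma adjusted p = 0.0526 and 0.0573). Of the 7 tested monocyte genes, 4 had every Gata2cKO library above every control and 2 had every one below. These arrangements were found in 23.4% and 10.5% of all tested genes. Among pan-leukocyte genes Arhgdib, a signalling gene of blood cells, was the 1 of 11 tested genes that rose (1.04 ± 0.263 and 1.95 ± 0.197 TPM, adjusted p = 0.0384). The 18 pan-leukocyte genes summed to between 45.6 and 63.6 TPM in controls and between 62.8 and 69.2 TPM in Gata2cKO libraries.

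Growth factors for these cells were also measured. Of 7 tested genes of the colony-stimulating factor axis, 1 rose and none fell. Csf1, the ligand of the Csf1r product, was at 18.5 ± 2.07 and 19.7 ± 2.32 TPM (SD, n = 3 each; limma adjusted p = 0.686). Kitl, the ligand of the receptor KIT on mast cells and germ cells, rose, at 4.76 ± 0.884 TPM in controls and 8.46 ± 0.489 TPM in Gata2cKO libraries (log2 fold change 0.73, adjusted p = 0.0189; 0.0820 at most over the removals). Of 10 tested genes for ITAM adaptors, their receptors and kinases, the set in which Tyrobp works, none passed in limma, and 1 had an unadjusted p under 0.05. The most abundant, Fcer1g, the other common adaptor of this kind, was at 29.8 ± 2.52 and 29.5 ± 1.77 TPM (adjusted p = 0.945).

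Of 15 tested complement genes other than C1q, 5 rose and 1 fell. Clu, the clusterin gene, rose from 42.3 ± 8.75 to 70.3 ± 2.73 TPM and Vtn, the vitronectin gene, from 1.65 ± 0.549 to 3.87 ± 0.571 TPM (SD; limma adjusted p = 0.0247 and 0.0261). C3, the central component, and C3ar1, a receptor for its fragment on myeloid cells, also rose (adjusted p = 0.0288 and 0.0451; named after their values were seen). Cfp, which encodes properdin, fell from 27.3 ± 1.27 to 21.0 ± 1.62 TPM (adjusted p = 0.0464) and kept its call in none of the 6 removals. The partners of C1q in the C1 complex, C1ra and C1s1, did not pass and had log2 fold changes of -0.0022 and 0.02 (adjusted p = 0.992 and 0.892).

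Lysosomal genes, the group around Cd68 and Lyz2, rose in 5 of 26 tested cases and fell in none, with a median log2 fold change of 0.22. Lipa, lysosomal acid lipase, had means of 9.90 ± 0.0169 and 13.8 ± 0.220 TPM and Gusb, beta-glucuronidase, of 34.2 ± 3.11 and 49.9 ± 1.51 TPM (SD, n = 3 each), both with a limma adjusted p of 0.0178. Ctsc, cathepsin C, rose from 15.5 ± 1.42 to 20.7 ± 0.863 TPM (adjusted p = 0.0397). Every cell has lysosomes, so these genes are not particular to phagocytes. Over the removals of a library between 0 and 8 of the 26 rose, 8 without control replicate 1 and 0 without Gata2cKO replicate 1.

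The S100 relatives of S100a8 and S100a9 and the calprotectin receptor genes moved both ways. Of 13 tested, 3 rose and 1 fell. S100a16 rose from 72.6 ± 4.41 to 108.7 ± 6.45 TPM, S100b from 1.23 ± 0.390 to 3.31 ± 0.555 TPM and S100a6, named after its values were seen, from 66.7 ± 10.5 to 100.2 ± 5.19 TPM (SD). All 3 passed in limma, at adjusted p = 0.0132, 0.0173 and 0.0320. Ager, which encodes RAGE, a receptor for S100 proteins, fell from 58.6 ± 4.55 to 35.6 ± 4.35 TPM (log2 fold change -0.71, adjusted p = 0.0156). S100a16, S100b and S100a6 are made by epithelial, glial or mesenchymal cells as well and do not mark neutrophils.

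Markers of other blood cells were measured in the same libraries. Of 8 tested mast cell and basophil markers 4 rose and none fell, and the 9 listed genes summed to between 110 and 155 TPM in controls and between 309 and 326 TPM in Gata2cKO libraries. Erythroid markers, mostly globins, summed to 18290 TPM in control replicate 1, to 6879 and 7830 TPM in controls 2 and 3 and between 10540 and 13840 TPM in Gata2cKO libraries. Control replicate 1 was thus the highest library for this sum, which is a sum of globins in the main. Of 9 tested erythroid markers 1 rose and none fell, and without control replicate 1 the number that rose was 5. The 1 gene was Slc4a1, at 1.55, 0.687 and 0.886 TPM in controls and 2.16, 2.34 and 2.05 TPM in Gata2cKO libraries. Its limma adjusted p was 0.0438, and 0.135 at most over the removals. The part of retained blood in the results for S100a8, S100a9 and Lyz2 was not tested.

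**Figure D4:**
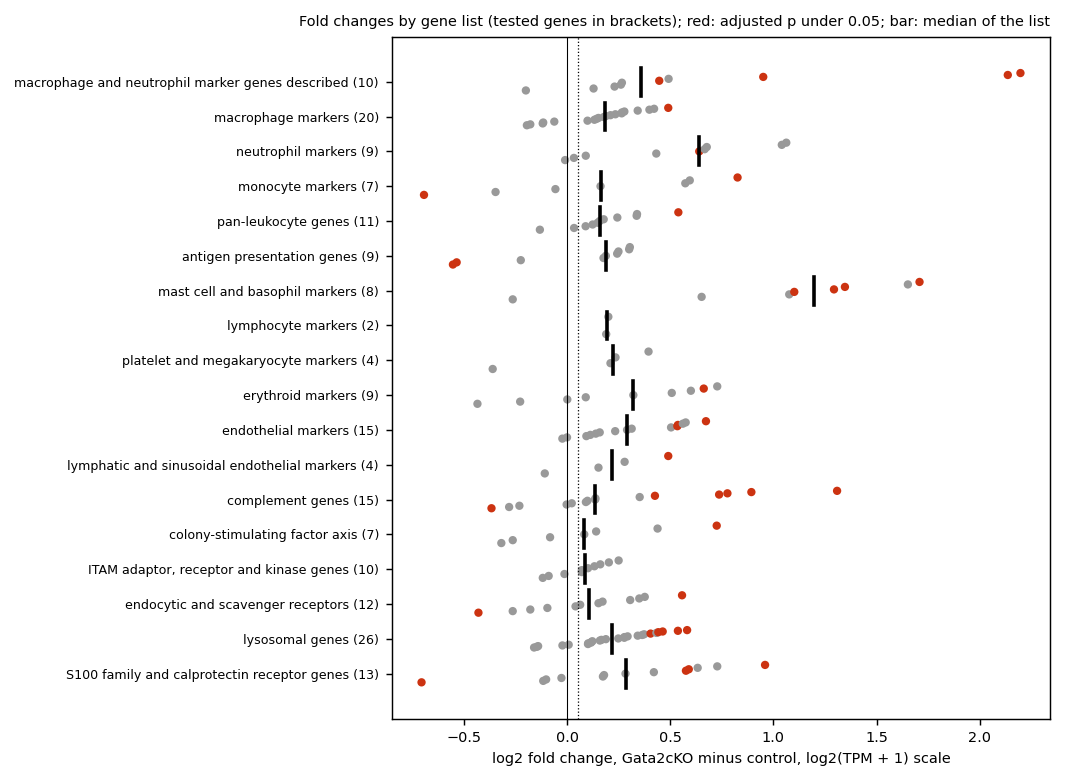
Log2 fold change of every tested gene by list, on the log2(TPM + 1) scale; red points passed at an adjusted p under 0.05, the bar is the median of the list, and the dotted line is the median of all tested genes. The 10 marker genes spread from -0.20 (Cd68) to 2.20 (S100a9), and the median of the mast cell and basophil list (1.20) lies to the right of the others.

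The authors' deposited table called the same 4 of the 10 genes, at adjusted p = 7.7e-07 for Lyz2, 2.5e-05 for S100a8, 0.00369 for Mrc1 and 0.0328 for S100a9, where 13.3% of its 14366 genes passed and 6.69% passed as higher. Its log2 fold changes were 0.89 for Lyz2, 2.24 for S100a8, 0.47 for Mrc1 and 2.39 for S100a9, and its adjusted p for Tyrobp was 0.133. In the limma test the calls were fragile to the choice of libraries. Without control replicate 1 the same 4 genes passed, without control replicate 2, control replicate 3 or Gata2cKO replicate 1 only Lyz2 did, and without Gata2cKO replicate 2 or 3 none of the 10 did. Of the other genes named as having risen or fallen, Lyve1, Anxa1, Vcan, Arhgdib, Slc4a1, Clu, C3ar1, Lipa, Ctsc, Cd40, Pros1 and Scarb2 kept their calls in 1 removal each, that of control replicate 1.

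**Figure D5:**
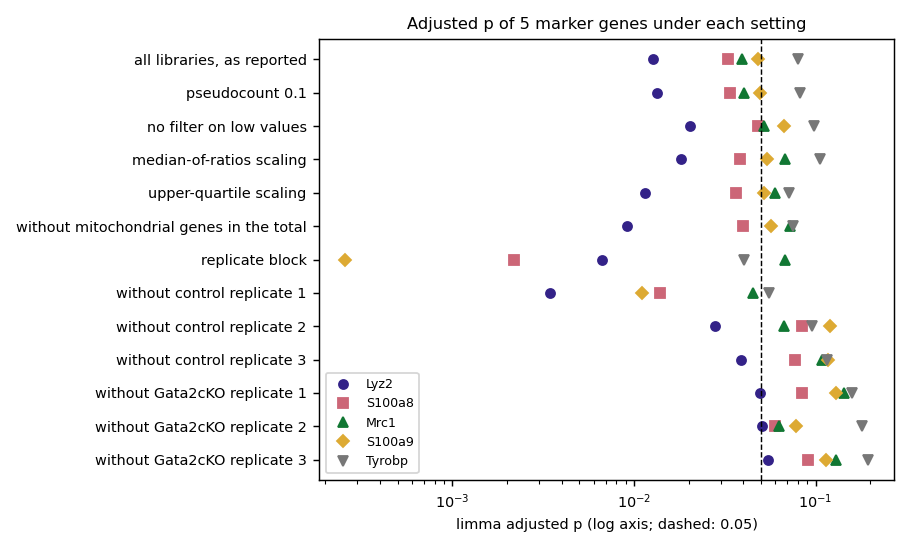
Limma adjusted p (log axis) of Lyz2, S100a8, Mrc1, S100a9 and Tyrobp with all libraries and under each of the 12 other settings; the dashed line is 0.05. Lyz2 lies left of the line in 10 of the 12 other settings, while S100a9 and Mrc1 lie right of it in most.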

How the data were processed

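Per the labels' protocols, RNA came from the PicoPure kit, and mRNA selected on poly-T beads was copied from random hexamers. The submitters' processing notes name STAR 2.7.11a, DESeq2, DESeq and GRCm38 without saying what each did. The deposited values were taken as TPM made by the authors, because each library summed to between 997351 and 998844. No source used here names the quantifier or says how genes were chosen for the table. The table also holds the authors' log2 fold change, p-value and adjusted p-value, per the file headers. Columns were matched to samples by library name. TPM keeps no depth, so error is the spread between replicates.

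A linear model with a group term was fitted to log2(TPM + 1) of the 12300 genes with limma 3.58.1 (trend, R 4.3.3), two-sided, with Benjamini-Hochberg adjustment over those genes. It was tested on simulated data. Fold changes on this scale understate those of low genes. An exact permutation test of 3 against 3 cannot go below 0.1 and was not used. Alternatives were a pseudocount of 0.1, no filter, 3 scalings, a replicate block and the removal of each library. The 10 genes and the gene lists, which exclude them, were chosen with earlier results of these data known. Named genes were the 10, Gata2 and, from each list, the genes past the threshold with the smallest adjusted p (at most 3), at most 2 of the rarer direction, or, where none passed, the tested gene with the highest level; for 2 patterns, the 5 most correlated genes. Any other gene was named after its values were seen. Positions are from GENCODE M21 (GRCm38), with identifiers matched without version for all 10 genes. Some genes that this rule names are not reported here.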

Additional observations from a re-analysis of the deposited data

How the results depend on the processing

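With 919 genes called in all, leaving out a library gave between 116 (without Gata2cKO replicate 1) and 1539 (without control replicate 1) called genes, and between 0 and 4 of the 10 marker genes. With no filter, median-of-ratios scaling, upper-quartile scaling or no mitochondrial genes in the total, 2 of the 10 passed (Lyz2 and S100a8), and the cause was not tested. None of the 10 changed direction under any of the 12 alternatives. C1s1 changed direction with median-of-ratios scaling (log2 fold change -0.038), upper-quartile scaling (-0.0074) and no mitochondrial genes (-0.037). Over the removals of a library these genes, none of which passed, changed direction: Cd79b (-0.12 to 0.51), Fcer1g (-0.082 to 0.029), Camp (-0.16 to 1.19), C1ra (-0.12 to 0.081), C1s1 (-0.027 to 0.075) and Gata2 (-0.14 to 0.11). The deviations of same-numbered samples correlated at 0.245 for number 1, the highest of the 9 pairs of a control with a Gata2cKO sample, but at -0.07 for number 2 and 0.04 for number 3. Only 1 of the 3 controls correlated best with its own number, so the numbers were not taken to pair the samples. With the replicate block 774 genes passed, among them Lyz2, S100a8, S100a9 and Tyrobp, 4 of the 10, but not Mrc1. Depth is unknown, and 3 libraries a group limit the precision, most of all for S100a8 and S100a9.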

Other observations

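Antigen presentation genes, which macrophages and dendritic cells use to show peptides to T cells, fell in 2 of 9 tested cases and rose in none, with a median log2 fold change of 0.19. Cd40, a co-stimulatory receptor gene, fell from 5.50, 6.27 and 7.17 TPM in control replicates 1 to 3 to 3.70, 3.97 and 4.23 TPM in Gata2cKO replicates 1 to 3 (limma adjusted p = 0.0284). Cd83, a gene of mature dendritic cells that other cells also express, fell from 15.9 ± 1.28 to 10.7 ± 1.70 TPM (SD, n = 3 each; adjusted p = 0.0447) and kept its call in none of the 6 removals of a library. Among endocytic and scavenger receptors Pros1, a bridge between dying cells and phagocytes, rose from 5.87 to 9.08 TPM and Scarb2, a lysosomal receptor, fell from 10.03 to 7.21 TPM (mean, n = 3 each; adjusted p = 0.0307 and 0.0394), of 12 tested. Cd40, Pros1 and Scarb2 kept their calls in 1 of the 6 removals, that of control replicate 1, with adjusted p-values of at most 0.116, 0.108 and 0.116. Neither the 2 tested lymphocyte markers nor the 4 tested platelet markers passed in limma (0 and 2 had an unadjusted p under 0.05), with Cd79b at 6.69 and 7.34 TPM and Pf4 at 104.8 and 120.8 TPM.

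Among the genes whose log2(TPM + 1) ran most closely with S100a8 over the 6 libraries were Hacd4, Nkapl, Anxa1 and Fam136a, with Pearson correlations between 0.993 and 0.995. For the mean of C1qa, C1qb and C1qc they were Cers5, Wdr61, Sptssa, Sft2d3 and Pcdh18, between 0.989 and 0.994. With 6 libraries in 2 groups such values are common, since 585 tested genes had a correlation above 0.9 with S100a8 and 299 with the C1q mean, so these are descriptions of the libraries.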
